A study of Drosophila melanogaster with 3 samples.

Results

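Intronic peaks away from promoters made up 584 of the 3814 reproducible binding sites of the GFP-tagged fly protein CG17186 (15.3%). They were chosen by position alone: the summit lay more than 500 bp from every annotated transcription start site (TSS), inside a protein-coding gene body and in no exon of a protein-coding gene. Promoter peaks, with a summit within 500 bp of a TSS, numbered 2955 (77.5%). Intergenic peaks away from promoters numbered 242 (6.35%), and the remaining 33 (0.865%) lay in exons. The data came from chromatin immunoprecipitation and sequencing (ChIP-seq) of whole Drosophila melanogaster embryos of both sexes, collected at 0 to 14 hours. The line carried a stable insertion expressing CG17186 with GFP at its C-terminus, and chromatin sonicated to 200 to 800 bp was recovered with an antibody to GFP. The series holds 1 group of 3 biological replicates, so the comparisons are between classes of peaks and between replicates. What drives the transgene is not given in the sources used here, a possible control was not analysed here, and embryos of this age range mix all tissues and many stages.

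Introns are removed from transcripts by splicing, but their DNA can hold enhancers, insulators and start sites of other transcripts. In flies the first introns of developmental genes are often long and carry enhancers. CG17186 is annotated as an uncharacterized protein, and its own gene (chr3R:19875974-19877514, minus strand) had a summit at its promoter and no intronic sequence that could hold a member.

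Most members had low GC content at the summit, and most lay in first introns. The sequences shown are from 2L, 3L, 3R and X. The 2 strongest members there with the 8-base word AACAGCAC come first, because that word was among those picked from earlier results over all reproducible peaks. All sequences are 101 bases around the summit, on the plus strand of dm6, and capitals here mark the word on either strand.
x16, chr2L:6919276-6919376: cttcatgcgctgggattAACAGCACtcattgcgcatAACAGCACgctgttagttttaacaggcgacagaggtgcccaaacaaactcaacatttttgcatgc
mnb, chrX:17886283-17886383: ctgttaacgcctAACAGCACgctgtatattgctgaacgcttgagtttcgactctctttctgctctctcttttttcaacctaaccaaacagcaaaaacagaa
The x16 window held the word in 2 places and the mnb window in 1. GC content was 46.5% in the x16 window against 47.5% in its flanks, and 41.6% against 38.1% for mnb. Most other members lacked this word. The 5 strongest without AACAGCAC and without the forkhead core described below come next. Capitals mark every unbroken run of at least 6 A or T bases.
CG11050, chr2L:6612660-6612760: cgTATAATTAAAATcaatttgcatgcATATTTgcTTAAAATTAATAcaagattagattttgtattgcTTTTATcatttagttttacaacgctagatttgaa
ush, chr2L:481007-481107: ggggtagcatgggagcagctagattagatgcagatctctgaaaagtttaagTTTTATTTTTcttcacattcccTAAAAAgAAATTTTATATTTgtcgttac
cno, chr3R:5215477-5215577: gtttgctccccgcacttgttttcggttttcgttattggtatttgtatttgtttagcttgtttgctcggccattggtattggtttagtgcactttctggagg
Reph, chr2L:3804719-3804819: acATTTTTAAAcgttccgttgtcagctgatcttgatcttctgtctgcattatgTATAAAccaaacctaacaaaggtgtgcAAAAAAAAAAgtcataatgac
CG32772, chrX:4910294-4910394: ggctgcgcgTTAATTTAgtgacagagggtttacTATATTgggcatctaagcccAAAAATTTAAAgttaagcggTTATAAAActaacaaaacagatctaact
The window of cno had no such run and was the exception among these 5, with 42.6% GC against 33.7% in its flanks. The CG11050 window had 22.8% GC against 48.5% in its flanks. The next 3 are the strongest members with TGTTTAC, the core recognised by forkhead transcription factors, on either strand (capitals).
CG9663, chr2L:3302138-3302238: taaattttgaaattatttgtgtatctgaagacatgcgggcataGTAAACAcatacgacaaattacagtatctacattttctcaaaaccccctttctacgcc
Lk6, chr3R:11761009-11761109: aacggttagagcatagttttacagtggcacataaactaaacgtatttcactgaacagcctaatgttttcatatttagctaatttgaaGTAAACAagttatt
Trl, chr3L:14759444-14759544: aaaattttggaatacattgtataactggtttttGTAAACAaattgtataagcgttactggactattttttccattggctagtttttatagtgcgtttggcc
The last 2 are the strongest members with ATCGATAG, the word that led at promoter peaks and overlaps the sites of the promoter factors DREF and BEAF-32 (capitals, either strand).
CG42709, chr3L:12794666-12794766: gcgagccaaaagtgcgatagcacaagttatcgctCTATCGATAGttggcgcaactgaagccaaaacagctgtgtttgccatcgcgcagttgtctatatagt
Stt3A, chrX:21053261-21053361: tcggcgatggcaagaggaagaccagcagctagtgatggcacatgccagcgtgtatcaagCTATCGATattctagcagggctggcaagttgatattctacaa

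GC content was low under the summits of members. This comparison was added after the sequences had been seen. Its median was 33.7% within 50 bp of the summit (quartiles 29.7% and 40.6%), against 43.6% in equally wide flanking windows whose centres lay 300 bp away. Of 584 members, 442 (75.7%, exact Clopper-Pearson 95% interval 72.0 to 79.1) were below their own flanks. Intergenic peaks had medians of 35.6% at the summit and 44.1% in flanks, and 64.5% of them (58.1 to 70.5) were below their flanks. Promoter peaks had 40.6% and 43.1%, and 55.4% of them (53.6 to 57.2) were below. Tiles of the same width over all intronic sequence that meets the rule had a median of 39.6%, so members lay below that sequence at the summit and above it in the flanks. Intervals here and below cover the number of peaks or genes only.

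Averaged in sliding windows of 21 bp, GC at members was lowest at the summit itself, at 34.0%, and highest 200 bp away, at 44.8%. Far from the summit, 800 to 1000 bp away, it was 40.8%. Intergenic peaks had a similar profile with a low of 35.9%, whereas the promoter profile was lowest 100 bp before the summit, at 37.4%, and stood at 41.0% at the summit. The same rule was applied to the 3814 strongest peaks of each replicate alone, since peaks are not biological replicates. The median of summit minus flanks in intronic peaks was -8.42, -9.41 and -5.94 percentage points in replicates 1, 2 and 3 (mean -7.92 ± 1.78, SD, n = 3). Promoter peaks had -2.48, -3.47 and -0.99. The difference, intronic minus promoter, was -5.94, -5.94 and -4.95 points (mean -5.61 ± 0.572; exact sign-flip permutation test over 3 replicates, two-sided, p = 0.25, the smallest possible). All 3 replicates went the same way and the ranges did not overlap. The 3 lists hold largely the same sites and GC is read from the same genome sequence, so this agreement is largely built in. Intergenic peaks had -8.17, -6.93 and -0.99, and those of replicates 1 and 2 lay within the intronic range. Against intergenic peaks the difference was -0.25, -2.48 and -4.95 points (mean -2.56 ± 2.35; same exact test, p = 0.25).

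**Figure D1:**
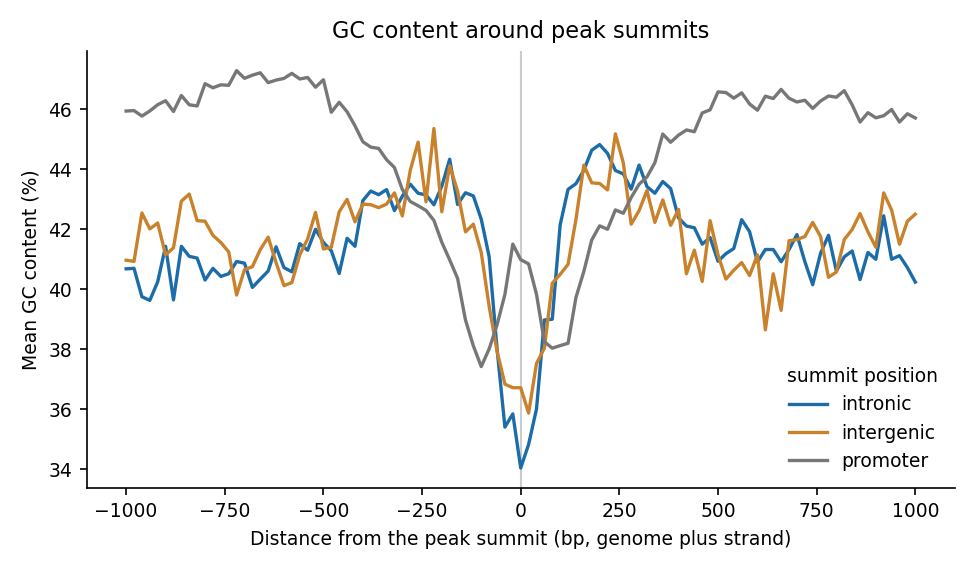
Mean GC content (%) in windows of 21 bp against distance from the summit (bp) for intronic, intergenic and promoter peaks. The intronic line drops to 34.0% at the summit between shoulders that reach 44.8%, while the promoter line has lows on both sides of its summit.

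The low median GC content was shared by every kind of member compared. The stronger and weaker members had medians of 33.7% and 34.2%, members over and within 2000 bp of a TSS both had 33.7%, and so did members on X and on the autosomes. The 496 members with no other reproducible summit within 1000 bp also had 33.7%, against 43.6% in flanks. The extremes were in simj, which encodes the p66 subunit of the NuRD chromatin remodelling complex (13.9% GC against 53.5% in flanks), lbk (15.8% against 52.5%) and tara (16.8% against 49.5%). These 3 were chosen after their values were seen. Not every member went this way, and the summit in COX7AL2, also chosen so, had 62.4% against 27.7% in flanks. An unbroken run of at least 10 A or T bases was present at 44.9% of members' summits (40.8 to 49.0), against 28.6% and 28.1% in the left and right flanks and 36.0% of intron tiles. Intergenic peaks had such a run at 38.0% of summits (31.9 to 44.5), an interval that overlapped that of members. Promoter peaks had one at 34.4% (32.7 to 36.1).

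Words of known promoter factors were rare at members. The DREF site TATCGATA was found at 3 of 584 members (0.514%, 0.106 to 1.49), against 9.98% of promoter peaks (8.93 to 11.1). The M1BP site GGTCACACT was at 2 members (0.342%) and at 6.26% of promoter peaks, and the core promoter element motif 7, CANCNCTA, at 3.6% and 10.9%. The BEAF-32 site CATCGATA was at 0 of 584 members, which allows a share of up to 0.514% by a limit of 3 counts (0.630% by the exact interval), and at 4.53% of promoter peaks. ZIPIC, an insulator protein with the word CAGGGCTG, had 0.342% and 2.91%. Over all tiles of suitable intron, TATCGATA was found in 0.219%, GGTCACACT in 0.0473%, CANCNCTA in 2.23%, CATCGATA in 0.237% and CAGGGCTG in 0.105%. Windows before the starts of all coding genes, bound or not, held them at 6.30%, 2.29%, 6.78%, 2.70% and 1.33%, in the same order. The part of ordinary promoter sequence in the differences from promoter peaks was not tested. These words were searched on both strands, and those of DREF and BEAF-32 overlap each other and ATCGATAG. The last was at 4 members (0.685%, 0.187 to 1.74), in CG42709, Stt3A, Sarm and Asator. It was at 10.2% of promoter peaks, 0.318% of intron tiles and 5.87% of windows before coding gene starts. In the peaks of each replicate alone, ATCGATAG was at 0.690%, 0.341% and 0.522% of intronic peaks, against 9.46%, 9.63% and 9.75% of promoter peaks. The shares of intronic and promoter peaks did not overlap between replicates. The lists hold largely the same sites, so the agreement between replicates is largely built in. AACAGCAC was at 2.37% of promoter peaks, 0.346% of intron tiles and 0.774% of windows before coding gene starts. It was at 5 members (0.856%, 0.279 to 1.99), in x16, mnb, nyo, waw and Eip75B. The first 2 of these are the strongest members of all, and the median rank of the 5 in the reproducible set was 2020.

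Words of embryonic enhancer factors were looked for as well. The Zelda site CAGGTAG, bound by an early activator of the zygotic genome, was at 0.514% of members and at the same share of their flanks. In the peaks of each replicate it was at 0.345%, 0.511% and 0.870% of intronic summits, and the difference from flanks averaged 0.0878 ± 0.3 percentage points (exact sign-flip permutation test, n = 3, p = 1). The Grainyhead word AACCGGTT was at 0 members, with the same upper limits as for BEAF-32. The GATA factor word TGATAAG was at 3.08% of members (1.84 to 4.83), against 1.88% of flanks. Intergenic peaks had it at 4.13% (2.00 to 7.47) and promoter peaks at 1.46%. CATATG, an E-box bound by the mesoderm factor Twist, was at 6.16% of members (4.35 to 8.43), against 3.42% of flanks. Intergenic peaks had this E-box at 4.55% (2.29 to 7.99) and promoter peaks at 2.50%. The other E-box, CAGCTG, was at 4.11% of members, 5.74% of flanks and 9.78% of promoter peaks. The CTCF core AGNNGGCGC was at 1.54% of members (0.707 to 2.91), 5.37% of intergenic peaks (2.89 to 9.01) and 2.00% of promoter peaks. Intron tiles held CAGGTAG at 0.437%, AACCGGTT at 0.113%, TGATAAG at 1.48%, CATATG at 3.12%, CAGCTG at 3.55% and the CTCF core at 0.629%.

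The forkhead core TGTTTAC had a larger share at members than in flanks or in the other classes, but it was picked after the words at these summits had been seen. It was at 43 of 584 members (7.36%, 5.38 to 9.79), against 2.31% of flanks, 2.89% of intergenic peaks (1.17 to 5.87), 3.42% of promoter peaks (2.79 to 4.14) and 2.15% of intron tiles. In the peaks of each replicate it was at 6.90%, 6.13% and 8.0% of intronic summits, against 2.24%, 2.90% and 2.96% of their flanks. These lists, too, hold largely the same sites, so their agreement is largely built in. The 43 members ranged from rank 108 to rank 3803 in the reproducible set, with a median rank of 2002, and 8 of them lay within 1000 bp of a TSS. Their hosts included CG9663, Lk6, Trl, Lrch, S, Dys, CG6333 and Rbfox1. The word is rich in A and T, and the part of the members' low GC content in its share was not tested. The match is to letters only and says nothing of which protein was there.

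**Figure D2:**
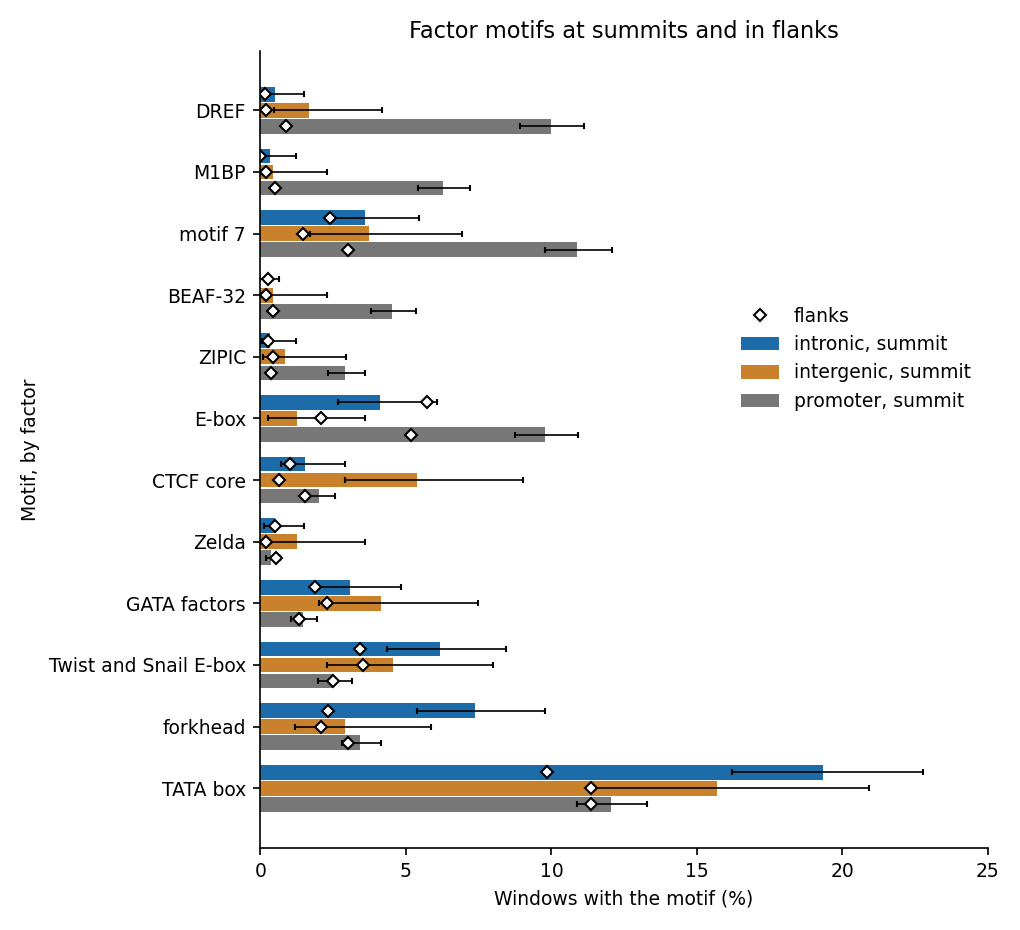
Share of windows within 50 bp of the summit (%) that held each motif, for intronic, intergenic and promoter peaks (bars with exact Clopper-Pearson 95% intervals), with the mean of both flanks as diamonds. Intronic bars are near 0 for DREF and M1BP, where promoter bars reach 9.98% and 6.26%. The intronic bar is the longest of the 3 for CATATG (labelled Twist and Snail E-box), the forkhead core and the TATA box.

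Plain A and T words had the largest differences between summits and flanks among the words listed here. Those given before the TATA box word were picked after the words at these summits had been seen. Their large differences over all members were thus partly built in. They were among the leading words on 2L, 2R and X, and ATTTAA and TAAATA were also among those on 3L, 3R and 4. Their shares on 3L, 3R and 4 are thus no independent reading. In the order given below, these shares were 27.7%, 33.3% and 16.1%, against 11.6%, 14.1% and 4.02% of flanks. Other leading words on 2L, 2R and X were AAATAT and TTTAAA. On 3L, 3R and 4 AAATAT had 27.3% against 16.3% of flanks, and TTTAAA had 16.9% against 9.44%. ATTTAA was at 28.6% of members (25 to 32.4), against 10.8% of flanks and 17.4% of intron tiles. TAAATA was at 29.5% and 13.1%, and AATATT at 17.8% and 5.74%, with 16.6% and 9.70% of tiles for these words. The TATA box word TATAAA was at 19.3% of members (16.2 to 22.8), 9.85% of flanks, 13.2% of tiles and 12% of promoter peaks. Windows before the starts of all coding genes held TATAAA at 20.2%. Intergenic peaks held ATTTAA at 23.6%, TAAATA at 22.7%, AATATT at 16.5% and TATAAA at 15.7%. For TATAAA the intergenic interval (11.4 to 20.9) overlapped that of members. No single 8-base word led throughout. On 2L, 2R and X the word with the largest excess over flanks was AATATTTA (6.27% against 2.09%), and on 3L, 3R and 4 it was AAAATAAT (7.63% against 1.41%). Read on the arms where they had not been picked, the shares were 5.22% against 1.20% of flanks for AATATTTA and 2.99% against 1.79% for AAAATAAT. In promoter peaks ATCGATAG led on both sets of chromosome arms, at 10.3% and 10.1%.

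The strongest member stood apart from all others. The peak in x16, which encodes a splicing factor of the SR family, spanned chr2L:6918345-6919713 with its summit at 6919326 in the first intron. Its signal relative to the median shared peak was 26.1, 23.1 and 31.6 in replicates 1, 2 and 3 (mean 27.0 ± 4.33, SD, n = 3), and it ranked 30 in the reproducible set. Its lowest replicate was above every value of every other named member. The summit lay 583 bp from the TSS of nop5, a gene of the box C/D small nucleolar RNA machinery, and the same interval held a promoter summit 570 bp away. It is thus a member by a narrow margin. The relative signal of x16 comes from the strongest replicate peak over that interval, so it cannot be assigned to either summit alone.

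Below x16 the members formed a continuous series. The peak in mnb, the fly minibrain kinase gene (chrX:17886123-17886727), had 5.97, 3.52 and 7.11 (mean 5.53 ± 1.83). Its interval also held an exonic summit 200 bp away, so these values, too, cannot be assigned to either summit alone. CG11050 (chr2L:6612574-6612872) had 5.27, 5.26 and 4.98 (5.17 ± 0.163). The peak in ush, whose product is a zinc finger partner of GATA factors (chr2L:480928-481227), had 5.75, 4.65 and 4.24 (4.88 ± 0.781). The peak in cno, which encodes the adherens junction protein Canoe (chr3R:5215388-5215655), had 5.15, 3.07 and 4.81 (4.34 ± 1.12). The values of these 4 overlapped between replicates, so their order is not resolved. The ush summit was 1369 bp from the start of cbt and 972 bp from a promoter summit.

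The next members were in genes of several kinds. The peak in CG9663 (chr2L:3302055-3302302) had a relative signal of 3.6 ± 0.113 and that in Lk6, a kinase acting on the translation factor eIF4E (chr3R:11760901-11761196), 3.54 ± 0.262. Transcription and chromatin factor genes included sbb, which encodes the corepressor Brakeless (3.5 ± 0.462), Trl, which encodes the GAGA factor (2.65 ± 0.610), HmgZ of the HMG box family (2.68 ± 0.445), NFAT (2.42 ± 0.131) and Adf1 (2.57 ± 0.660). Kinase genes included Raf of the receptor tyrosine kinase cascade (2.62 ± 0.184), Tlk, the Tousled-like kinase (2.58 ± 0.639), and for, the cGMP-dependent kinase (2.48 ± 0.084). The remaining ones of the 20 strongest were Reph (3.22 ± 0.128), CG32772 (3.01 ± 0.319), Lrch (2.67 ± 0.715), CG46321 (2.49 ± 0.494) and LPCAT (2.35 ± 0.246). All 20 were above the median shared peak in each replicate. That is largely built in, because they were chosen by pooled signal and the pool holds the replicates' own reads.

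**Figure D3:**
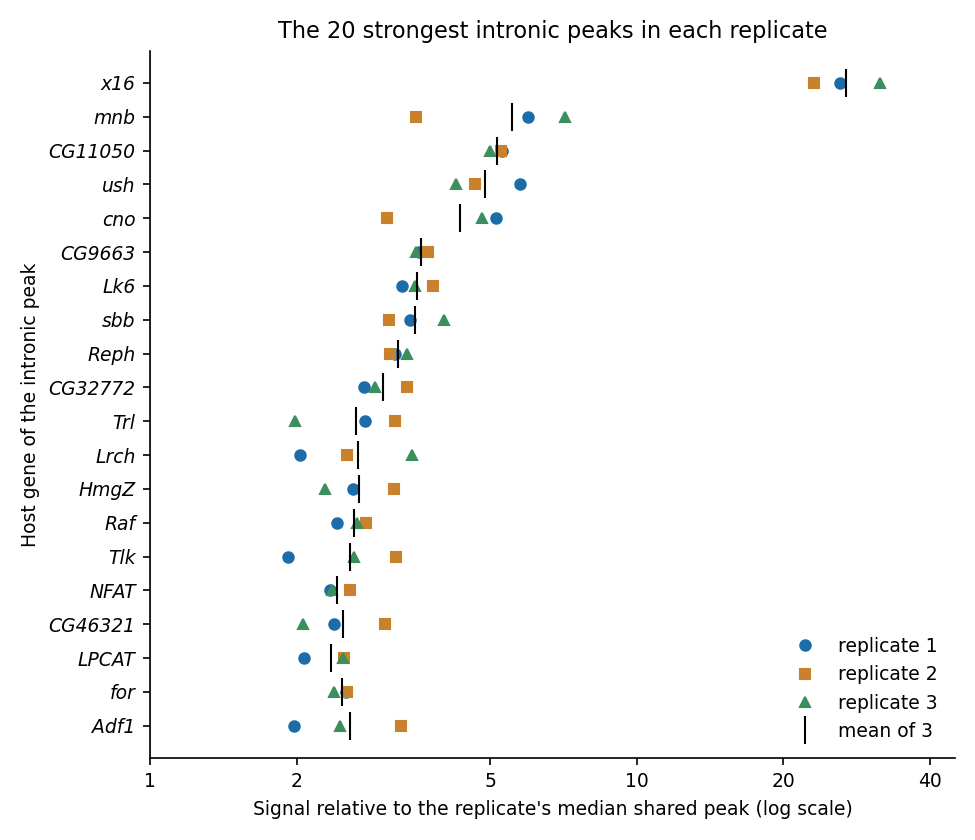
Signal of the 20 strongest intronic peaks relative to each replicate's median shared peak (horizontal, log scale), by host gene, with replicates 1 to 3 as circles, squares and triangles and the mean as a bar. The x16 peak lies between 23.1 and 31.6 and all others lie at 7.11 or below in every replicate.

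Members were a larger share of the weaker than of the strongest peaks. Of the 100 strongest reproducible peaks 5 were members (5.0%, 1.64 to 11.3), against 11.5% of ranks 101 to 500, 11% of ranks 501 to 1000, 14.2% of ranks 1001 to 2000, 17.4% of ranks 2001 to 3000 and 19.9% of ranks 3001 to 3814 (17.2 to 22.8). Pooled signal, the authors' value per peak, had a median of 152 in members (range 109 to 5175), 151 in intergenic peaks and 173 in promoter peaks. Within each replicate, the median log2 relative signal of members minus that of promoter peaks was -0.20, -0.26 and -0.20 (mean -0.22 ± 0.037, n = 3; exact sign-flip permutation test, two-sided, p = 0.25, the smallest possible). Members were thus lower than promoter peaks in 3 of 3 replicates, at 0.859 times their level on average. Against intergenic peaks the difference was 0.08, -0.06 and 0.05 (mean 0.02 ± 0.072; same exact test, p = 0.75) and changed sign between replicates.

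Members were found in the replicates about as often as other peaks, and a smaller share of them than of promoter peaks was among the strongest. Of 584 members, 568 (97.3%, 95.6 to 98.4) overlapped a peak in the relaxed lists of all 3 replicates, and over the whole set the share was 98.5%. That overlap is largely built in, because the reproducible set equals the strongest pooled peaks and the pool holds the replicates' own reads. Among the 3814 strongest peaks of all 3 replicates were 306 members (52.4%, 48.3 to 56.5), 138 intergenic peaks (57.0%, 50.5 to 63.3) and 1995 promoter peaks (67.5%, 65.8 to 69.2), beside 64.4% over the whole set. By replicate, the share of members among its strongest peaks was 82.7%, 76.7% and 77.4%, and that of promoter peaks 89%, 83.9% and 85.9%. The difference was -6.30, -7.18 and -8.49 points (mean -7.32 ± 1.10; exact sign-flip permutation test, n = 3, p = 0.25, the smallest possible), and the shares of single replicates overlapped across the 2 classes. Across members, which share libraries and are not independent, the signals had Spearman rank correlations of 0.617, 0.579 and 0.501 between replicates 1 and 2, 1 and 3, and 2 and 3 (n = 568), against 0.72, 0.709 and 0.649 in promoter peaks (n = 2916). Applied to the strongest peaks of each replicate alone, the rule gave 580, 587 and 575 intronic peaks, or 15.2 ± 0.158%.

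**Figure D4:**
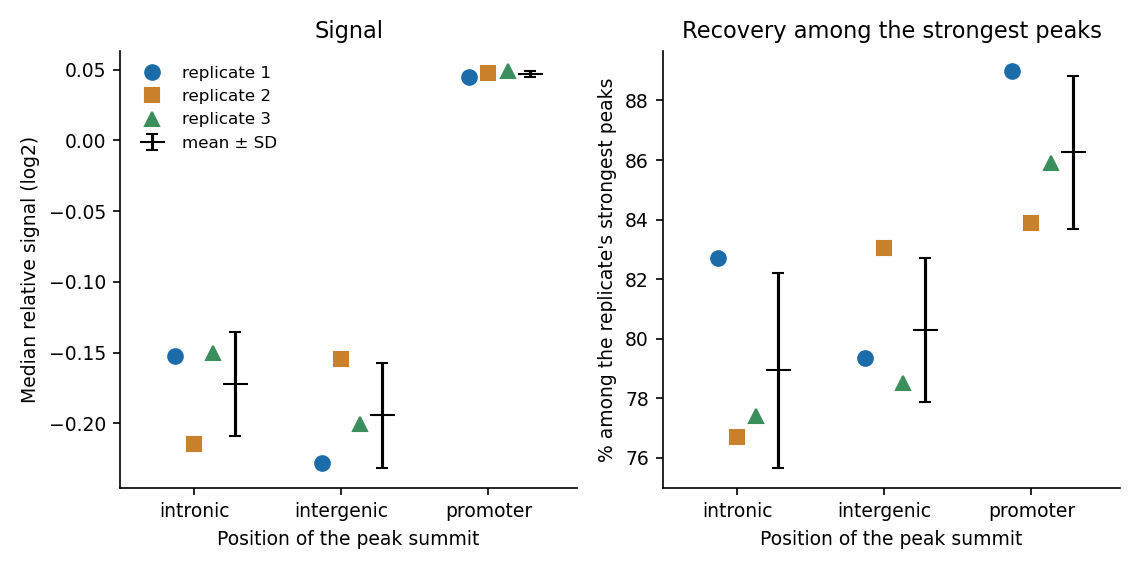
Median relative signal (log2, left) and share of peaks among the 3814 strongest of a replicate (%, right) for intronic, intergenic and promoter peaks, with 1 symbol per replicate and the mean ± SD beside it. In both panels each replicate has its intronic value below its promoter value, and the intronic and intergenic values overlap.

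Member density was highest close to TSSs, and most members lay in first introns. Their median distance to the nearest TSS was 2193 bp (502 to 35647), and for 433 (74.1%) that TSS was the host's own. From the 5′ end of the host gene the median distance was 6212 bp, at 30.1% of the host's length. Per megabase of intronic sequence that meets the rule, there were 29.8 members at 500 to 1000 bp from a TSS (24.9 to 35.3, exact Poisson interval), 20.4 at 1000 to 2000 bp, 12.6 at 2000 to 5000 bp, 8.66 at 5000 to 10000 bp, 4.91 at 10000 to 20000 bp and 1.55 beyond (0.824 to 2.65). The first intron of at least 1 transcript of the host held 438 members (75%, 71.3 to 78.5), against 42.3% of that sequence. Counting only the canonical transcript, the shares were 48.5% and 27.5%. First introns begin close to a TSS, and the part of that distance in the share was not tested. The intron of a member had a median length of 9311 bp, against 13112 bp over the sequence that meets the rule. No summit lay in an annotated transposable element, where 0 of 584 allows a share of up to 0.514% by the limit of 3 counts (0.630% by the exact interval). Summits of 4 members lay in an exon of a non-coding gene. The matching shares of suitable intron were not computed for these counts or for the host's own TSS.

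Just inside the 500 bp limit were members in CG8128 (502 bp from a TSS, pooled signal 247), prage (504 bp, 224) and Sclp (513 bp, 135). Just outside were peaks in Larp4B (498 bp, 155), CG11151 (496 bp, 143) and dom (493 bp, 123). The signals of CG8128 and prage were above all of these, and that of Sclp lay among them.

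The members lay in 417 host genes, and 110 of these held 277 members between them. Of the 417, 13 held at least 4. On X these were Hr4, a nuclear receptor of the ecdysone response with 6, CHES-1-like of the forkhead family with 6, Raf with 5, CG1677 with 5 and Tlk with 4. On the autosomes they were ush, Eip75B and px with 5 each, and sbb, simj, crp, shn and plh with 4 each. The arrangement differed among them. In Raf all 5 summits lay 2250 to 8644 bp from the 5′ end of the gene, in introns of which none was a first intron, and all 5 were among the strongest peaks of every replicate. In CHES-1-like the 6 lay 2392 to 16496 bp from the 5′ end, all in a first intron, and 5 were among the strongest of every replicate. The 6 summits of Hr4 were spread from 1886 to 42371 bp and differed in relative signal, with 2.32 ± 0.072 and 1.68 ± 0.287 for the 2 strongest and 0.687 ± 0.223 for the weakest. In ush the strongest of 5 had 4.88 ± 0.781 and the other 4 between 0.90 and 1.34. Eip75B, the nuclear receptor E75, had 5 summits 34880 to 76309 bp from its 5′ end with relative signals of 0.746 to 1.10.

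**Figure D5:**
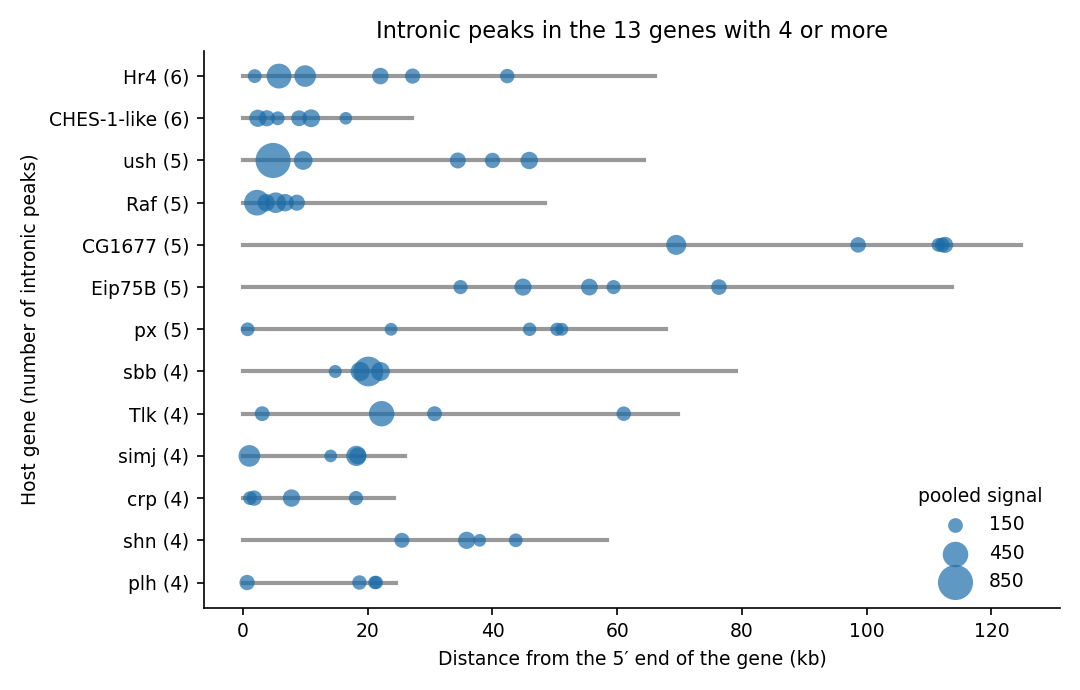
Positions of members along the 13 genes with 4 or more (kb from the 5′ end of the gene; grey line, gene body; dot area, pooled signal). The 5 members of Raf sit close together near the 5′ end of the gene, while those of Hr4, ush and Eip75B are spread more widely.

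Host genes carried a promoter summit more often than other genes in the same band of suitable intron length. Of 417 hosts, 218 (52.3%, 47.4 to 57.2) had a reproducible summit within 500 bp of one of their TSSs. The share was 28.7% (27.1 to 30.3) among the 3035 coding genes with at least 1000 bp of suitable intron and no member, and 28.0% among all coding genes. By amount of suitable intron, hosts against genes without a member had 46.7% against 33.3% at 1 to 5 kb, 61.3% against 25.6% at 5 to 20 kb, 47.4% against 22.3% at 20 to 50 kb and 46.0% against 14.8% over 50 kb. The 4 differences went one way, and the intervals overlapped nowhere. These intervals count genes, not embryos. The number of TSSs per gene was not matched, and its part in these shares was not tested. Members were denser in genes with less suitable intron, at 27.0 per megabase for 1 to 5 kb (22.2 to 32.6), 17.4 for 5 to 20 kb, 9.75 for 20 to 50 kb and 5.83 over 50 kb (4.82 to 6.98). By chromosome arm the density was 14.1 on X (11.8 to 16.6), 12.1 on 2L, 11.8 on 3L, 10.6 on 2R and 9.28 on 3R (7.73 to 11.0), with 1 member on chromosome 4.

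Gene lists were described by their members and set beside all coding genes, of which 11.6% of those with at least 1000 bp of suitable intron were hosts, at 11.3 members per megabase and a median pooled signal of 152. Signalling pathway genes had 12 hosts of 34 such genes (35.3%) with 20 members, 28.4 per megabase (17.4 to 43.9) and a median signal of 151. The strongest were in aos, which encodes a secreted inhibitor of the EGF receptor (relative signal 2.26 ± 0.240), InR, the insulin receptor gene (2.19 ± 0.419), fz, the Wnt receptor gene Frizzled (1.92 ± 0.177), and Mad, the transcription factor of Dpp signalling (1.53 ± 0.258). Ecdysone response genes had 7 hosts of 17 (41.2%) with 19 members, 31.3 per megabase (18.8 to 48.8) and a median signal of 145. Of these, Hr4 and Eip75B held 11, and E23, an ABC transporter gene, held a member at 1.48 ± 0.135. Chromatin regulator genes had 6 hosts, 5 of them among 15 genes with that much suitable intron (33.3%), with 7 members in all and 56.0 per megabase (22.5 to 115.4) on little sequence, with a median signal of 227. They were led by Trl, by trx, a histone methyltransferase gene (2.32 ± 0.257), and by osa, a subunit gene of the Brahma remodelling complex (2.02 ± 0.382).

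The remaining lists differed in whether they lay above or below all coding genes. Ion channel genes had 2 hosts of 30 (6.67%) with 3 members, 3.03 per megabase (0.625 to 8.86), in the potassium channel gene KCNQ and the calcium channel gene Ca-alpha1T. Embryonic patterning factors had 1 host of 22 (4.55%), the Hox gene lab (0.879 ± 0.179), at 2.64 per megabase (0.0669 to 14.7). Axon guidance and neural adhesion genes had 7 hosts of 43 (16.3%) with 9 members at 4.81 per megabase (2.20 to 9.13), led by the netrin receptor gene fra (1.89 ± 0.466) and caps (1.27 ± 0.106). RNA-binding protein genes had 8 hosts, 7 of them among 23 genes with that much suitable intron (30.4%), with 11 members in all at 7.94 per megabase (3.96 to 14.2), led by x16 and by brat, a translational repressor gene (1.76 ± 0.267). Muscle genes had 5 hosts of 24 (20.8%) with 8 members at 11.6 per megabase (5.02 to 22.9), led by kirre, an adhesion gene of myoblast fusion (1.96 ± 0.218). Lists differ in the size and number of their introns, with which member density moved, and the part of intron size in these densities was not tested.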

How the data were processed

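The deposited files were narrowPeak lists without headers. Per the deposited read-me tables, the authors called relaxed peaks on each replicate and on the pool, and thresholded a reproducible set with the irreproducible discovery rate procedure. The sources used here do not name the aligner, the caller or the threshold. Each peak's signal and −log10 q-value are the authors' deposited values, and the q-value entered no test. The files give no read counts, so depth is unknown. The lists held 30000, 26139 and 30000 peaks for replicates 1 to 3, 23428 pooled and 3814 reproducible.

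Genes came from Ensembl release 115 and sequences from the dm6 (release 6) assembly. A summit is the start plus the deposited offset, and the host is the shortest coding gene holding it. Relative signal is the strongest replicate peak overlapping by at least 1 bp, divided by that replicate's median over peaks shared by all 3. Named are the 20 strongest members, hosts with 4 or more, the strongest of each list, the 3 nearest the limit on either side, and the tagged gene. The members and lists were chosen with earlier results of these data known. Of the list symbols, 7 had no match (Fmi, Dl, h, otd, Unc-89, nos and Su(var)2-5). Scripts used Python 3.11.15, numpy 2.4.6, pandas 2.3.3 and scipy 1.17.1, and were tested on simulated data. Other TSS limits, windows, flanks, overlaps and lists were tried. A gene list and a member's sequence are not reported here.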

Additional observations from a re-analysis of the deposited data

How the results depend on the processing

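No result changed its called direction in 90 alternatives, of which 12 were chosen after seeing the data; 72 stayed within the spread between replicates or 1.5 times the count, and 18 did not. The smallest p the exact test allows with 3 replicates is 0.25, so no difference between classes could pass 0.05. No paired analysis was possible because there is only 1 group of samples; the differences between classes of peaks were taken within each replicate. With a TSS limit of 250 bp the intronic share of each replicate's strongest peaks averaged 18.5%, hosts with a promoter summit 42.7%, and the signal difference from intergenic peaks -0.058 (0.022 otherwise). With 1000 bp the intronic share was 11.7%, and with TSSs of coding genes only 15.8%. With the 2000 strongest peaks of each replicate, members among them were 43.5% and the intronic share 12.6%. A reciprocal overlap of 50% gave 72.3% of members among the strongest. Keeping the stronger 50% of peaks left 236 members, a signal difference from promoters of -0.12, promoter summits at 35.3% of hosts (fewer peaks by construction), and summit minus flank differences of 0.849 points for ATCGATAG and 0.778 for AACAGCAC. Flanks at 1000 bp gave 0.0862 points for ATCGATAG (0.431 otherwise) and -4.46 points of GC, and a window of 100 bp gave -5.97 points of GC. The canonical transcript put 48.5% of members in a first intron, and the nearest TSS alone gave promoter summits at 46.5% of hosts. The cause of the other moves was not tested. Leaving out a replicate gave signal differences from promoters of -0.23 to -0.20 and GC differences of -8.91 to -7.18 points. The small differences for AACAGCAC and CAGGTAG, and that from intergenic peaks in signal, changed sign under some of these settings and were within the spread between replicates in the report.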

Other observations

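Simple repeats were scarcer at members' summits than beside them. The repeat CACACACA was at 2.05% of members (1.07 to 3.56), against 6.08% of their flanks and 2.67% of intron tiles, and at 1.69% of promoter summits against 3.79% of promoter flanks. The GAGA factor word GAGAGAG was at 2.23% of members (1.19 to 3.78), against 4.62% of flanks and 1.41% of intron tiles. The homeodomain core TAATTA, itself made of A and T only, was at 8.56% of members (6.42 to 11.1), 6.34% of flanks and 7.64% of intron tiles. The Bicoid word GGATTA was at 3.08% of members, 2.14% of flanks and 3.35% of tiles. The AP-1 word TGANTCA was at 2.4%, 2.57% and 2.22%, and the Su(Hw) core TGCATACTT at 0.342%, 0.171% and 0.25%, in the same order.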
